A study of Mus musculus with 2 samples.

Results

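The regions described here were 13018 stretches of open chromatin that lay between genes, over 5 kb and at most 100 kb from the nearest protein-coding transcription start site, out of 60596 stretches found open in both libraries of the study. They were chosen by position alone. DNase-seq peaks of the 2 libraries that overlapped by at least 1 bp were merged into regions, regions with a peak of both libraries were kept, and a region was counted as an intergenic site when its midpoint lay outside every protein-coding gene of GENCODE vM21 and within those distances. Of the other regions of both libraries, 21823 lay within 1 kb of a start site, 8419 lay 1 to 5 kb away, 14504 lay inside genes beyond 5 kb and 2832 were intergenic beyond 100 kb. The limits of distance cut through a continuum. The site closest to the lower limit, 5.002 kb from Zfp454, had a peak signal of 0.323 in replicate 1 and 0.356 in replicate 2, and the region just inside it, 4.999 kb from Ubtd2, had 0.860 and 0.842. At the upper limit, the last site, 99.981 kb from Tcte2, had 0.575 and 0.609, and the first region left out, 100.017 kb from Ralgapa2, had 1.24 and 1.05.

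The tissue was whole spleen of male B6CASTF1/J mice aged 4 days, first-generation hybrids of the C57BL/6J and CAST/EiJ strains. The 2 libraries were labelled biological replicates 1 and 2 of 1 group, with no treatment and no second condition. In DNase-seq the nuclease DNase I cuts accessible DNA, a peak marks a stretch with many cuts, and a footprint is a short protected stretch inside it. The signal of a peak is the authors' own value, on a scale that is not stated, and the number of reads behind it is unknown. With 2 libraries of 1 group the smallest two-sided exact p-value is 0.5, so no difference was tested and every comparison is a description with the spread of the libraries (SD, n = 2). In a whole tissue, fewer cells of a type and less accessible chromatin per cell cannot be told apart.

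Accessible sites far from promoters are mostly enhancers, which bind lineage transcription factors and act on genes at a distance, and boundary elements, which bind the zinc finger protein CTCF and shape the loops between them. A smaller number are promoters of non-coding RNA genes. The spleen of a newborn mouse makes red blood cells, a programme run by GATA1, TAL1, KLF1 and NF-E2, and it also takes in B cells, myeloid cells and macrophages. The gene nearest to a site need not be the gene it acts on, and here the nearest gene is only a label of position.

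The sequences of 8 sites show the kinds of DNA found among them. They were read from the plus strand of the C57BL/6J reference (RefSeq assembly GRCm38.p6), over the full width of each region. Capitals mark the matches to a short consensus, on either strand, and a match counts as footprinted when a footprint overlaps at least 1 of its bases. The first pair lies upstream of the embryonic globin gene Hbb-y, where the locus control region of the beta globin cluster is known. The stronger one (chr7:103861041-103861200) held 2 adjoining matches to the consensus of NF-E2 and related factors, and both were footprinted in both libraries. The weaker one (chr7:103859201-103859380) held 1 match to AGATAA, the GATA factor consensus, which was footprinted in neither library.
Hbb-y upstream site, stronger: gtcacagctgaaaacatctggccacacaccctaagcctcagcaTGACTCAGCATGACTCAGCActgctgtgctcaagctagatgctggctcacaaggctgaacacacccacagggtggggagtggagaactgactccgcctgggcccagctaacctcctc
Hbb-y upstream site, weaker: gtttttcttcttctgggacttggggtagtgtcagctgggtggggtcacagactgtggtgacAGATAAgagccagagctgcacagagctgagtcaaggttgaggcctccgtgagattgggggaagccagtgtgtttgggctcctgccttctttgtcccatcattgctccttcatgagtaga

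GATA matches stood in the strongest site nearest to each of 3 further genes of red cell or progenitor biology. These were Lmo2 (chr2:103893821-103894100), which encodes a bridging partner of GATA1 and TAL1, Myb (chr10:21196701-21196900), a transcription factor of dividing progenitors, and Car2 (chr3:14877741-14877880), the red cell carbonic anhydrase. The match was footprinted only in replicate 2 at Lmo2 and Car2 and only in replicate 1 at Myb. The 3 sites are examples chosen for their match, which 10.7% of all intergenic sites held within 100 bases of the midpoint. The strongest sites nearest to Tal1, Slc4a1, Gata1 and E2f2 held none there.
Lmo2 upstream site: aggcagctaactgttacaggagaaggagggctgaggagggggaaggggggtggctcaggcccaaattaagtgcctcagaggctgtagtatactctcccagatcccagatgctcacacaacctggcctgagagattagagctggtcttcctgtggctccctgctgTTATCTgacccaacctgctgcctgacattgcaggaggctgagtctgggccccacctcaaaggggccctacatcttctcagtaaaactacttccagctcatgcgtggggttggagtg
Myb upstream site: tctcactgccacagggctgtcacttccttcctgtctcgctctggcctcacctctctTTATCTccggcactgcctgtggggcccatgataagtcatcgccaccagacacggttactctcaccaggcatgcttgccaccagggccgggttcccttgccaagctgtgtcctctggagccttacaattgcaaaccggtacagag
Car2 upstream site: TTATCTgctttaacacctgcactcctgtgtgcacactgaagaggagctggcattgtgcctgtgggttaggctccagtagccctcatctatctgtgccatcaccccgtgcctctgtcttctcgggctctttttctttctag

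The site downstream of Cebpe, a transcription factor of neutrophil maturation, was chosen because it held the composite of CTG and AGATAA with 8 bases between them, the arrangement known from DNA bound by TAL1 with GATA1 (chr14:54705861-54706140). It was footprinted in both libraries. The site upstream of Pim1, a serine/threonine kinase, was the strongest with a match to the core of the CTCF motif, which is CCANNAG followed after 2 bases by GGC, among sites that were neither CpG-rich nor at a non-coding start site (chr17:29438481-29438640). Its match was also footprinted in both libraries. The last sequence, at the start of the long non-coding RNA gene Malat1 (chr19:5803561-5803780), shows the CpG-rich kind, with its 24 CpG dinucleotides in capitals.
Cebpe downstream site: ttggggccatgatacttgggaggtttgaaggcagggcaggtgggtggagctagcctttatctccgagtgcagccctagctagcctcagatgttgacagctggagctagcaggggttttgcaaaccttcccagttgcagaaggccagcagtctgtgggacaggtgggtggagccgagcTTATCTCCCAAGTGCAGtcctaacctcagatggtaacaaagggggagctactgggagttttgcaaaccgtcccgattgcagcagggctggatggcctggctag
Pim1 upstream site: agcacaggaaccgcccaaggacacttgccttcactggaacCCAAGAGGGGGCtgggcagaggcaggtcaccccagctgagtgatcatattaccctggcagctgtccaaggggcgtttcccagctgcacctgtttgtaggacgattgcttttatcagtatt
Malat1 site: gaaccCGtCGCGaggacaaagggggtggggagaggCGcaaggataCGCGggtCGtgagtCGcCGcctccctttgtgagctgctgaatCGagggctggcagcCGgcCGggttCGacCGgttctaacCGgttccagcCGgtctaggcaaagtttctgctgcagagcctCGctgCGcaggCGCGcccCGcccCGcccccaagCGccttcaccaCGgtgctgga

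Intergenic sites were weaker than regions near promoters and became weaker and sparser with distance. Their median signal was 0.887 in replicate 1 and 0.846 in replicate 2 (0.867 ± 0.0290, SD, n = 2), against 2.46 and 2.04 in regions within 1 kb of a start site. Regions inside genes beyond 5 kb were close to them, at 0.833 and 0.773, and intergenic regions beyond 100 kb were lower, at 0.522 and 0.515. Signals were spread widely, since 6825 sites were below 1 in both libraries and the 100 strongest had mean signals of at least 11.2. With sites called on replicate 2 alone, that is without replicate 1, the count was 20209 and the median 0.552. The lower and upper quartiles were 0.565 and 1.61 in replicate 1 and 0.535 and 1.52 in replicate 2.

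Among the 2288 sites at 5 to 10 kb the median signal was 1.10 in replicate 1 and 1.02 in replicate 2 (1.06 ± 0.0597). For the 3245 sites at 10 to 20 kb it was 1.01 and 0.944 (0.975 ± 0.0433). The 4774 sites at 20 to 50 kb had 0.828 and 0.797 (0.812 ± 0.0219), and the 2711 sites at 50 to 100 kb had 0.715 and 0.699 (0.707 ± 0.0114). Each class was thus lower than the one before it in both libraries, and from the nearest to the farthest class the drop was larger than the spread between libraries. Adjacent classes still overlapped widely in the signals of single sites, as the quartiles in the plot by distance show. Across the 13018 sites, log distance and mean signal had a Spearman correlation of -0.19, given as a description because neighbouring sites share genes and domains.

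Density followed the same order. The intergenic reference sequence 5 to 10 kb from a start site measured 80.9 Mb and held 28.3 sites per Mb, that at 10 to 20 kb held 25.4, that at 20 to 50 kb held 20.2 and that at 50 to 100 kb held 12.3. Counted in peaks of 1 library, the densities were 35.9, 32.8, 26.6 and 17.6 per Mb in replicate 1 and 41.3, 38.0, 31.4 and 21.7 in replicate 2, so the order did not rest on the overlap of libraries. Sites lay upstream of the nearest start site in 62.5% of cases. That share was 75.6% at 5 to 10 kb and 53.4% at 50 to 100 kb. Stretches inside genes, which lie downstream of a start site, are left out by the rule.

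**Figure D1:**
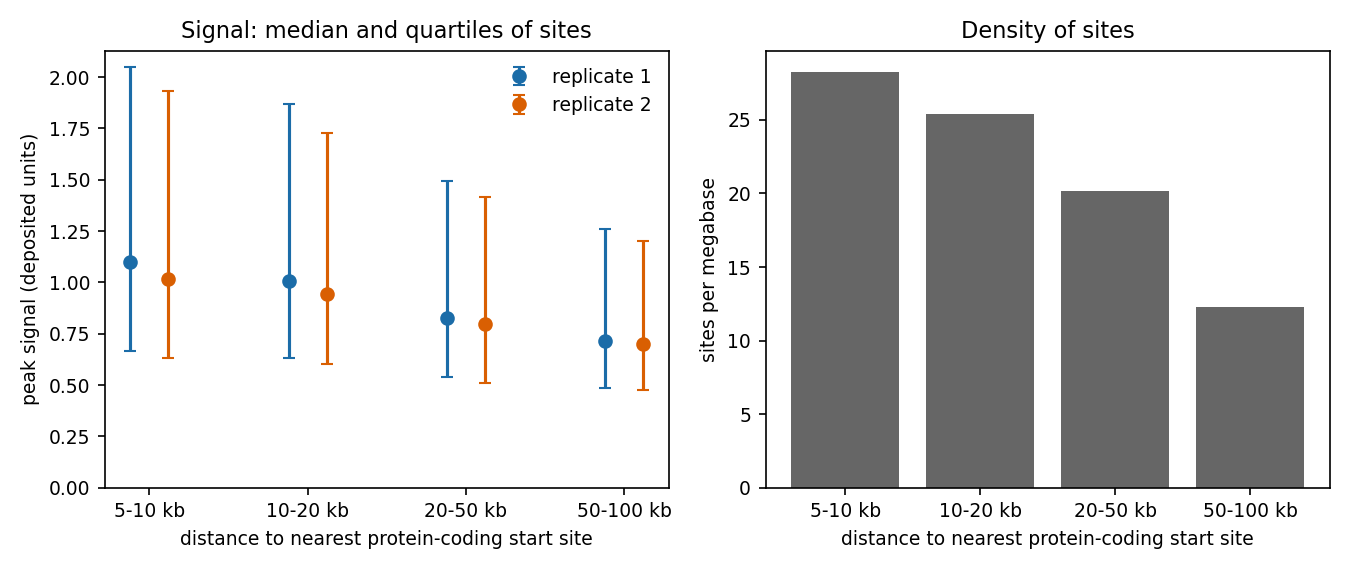
Left, median peak signal (points) with lower and upper quartiles (bars) of the intergenic sites in 4 classes of distance to the nearest protein-coding start site, for each library; right, sites per megabase of intergenic reference sequence in the same classes. The medians go from 1.10 and 1.02 in the nearest class to 0.715 and 0.699 in the farthest, and the density from 28.3 to 12.3 sites per megabase.

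Most sites also overlapped the stricter peaks and the footprints deposited for each library. Both come from the same libraries as the longer lists that chose the sites, so they are not separate evidence. A peak of the stricter list of both libraries overlapped 8402 sites (64.5%), against 69.1% of all regions of both libraries and 83.3% of those within 1 kb of a start site. The share was 67.8% at 5 to 10 kb and 60.1% at 50 to 100 kb. Footprints of both libraries lay in 11653 sites (89.5%), against 87.3% of all regions. A site held a mean of 2.58 footprints in replicate 1 and 2.86 in replicate 2, and within 100 bases of the midpoint they covered 18.1% and 21.1% of the bases, compared with 23.3% and 24.2% within 1 kb of a start site. The 2 libraries ranked the sites alike, with a Spearman correlation of 0.935 and a Pearson correlation of log2 signals of 0.955 over the 13018 sites. These correlations cover only regions with a peak of both libraries, which were 53.8% of the 24204 merged intergenic regions. Regions called in 1 library alone are not in them.

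Many of the strongest sites were CpG-rich or lay at the starts of RNA genes that the rule does not count. A start site of a long non-coding RNA, small RNA, pseudogene or non-coding transcript was within 1 kb of 1267 sites (9.73%), of which 857 were at long non-coding RNA genes. All 1267 had median signals of 1.06 and 0.997 in replicates 1 and 2, and the 11751 sites at no such start had 0.871 and 0.830. The kinds differed, with 1.22 and 1.14 at the 857 long non-coding RNA starts and 0.677 and 0.629 at 266 pseudogene starts, below the sites at no such start. CpG-rich sequence, taken as a GC content of at least 50% and an observed over expected CpG ratio of at least 0.6 within 250 bases of the midpoint, was found in 798 sites (6.13%), against 67.4% of regions within 1 kb of a protein-coding start site. When all sites were ordered by mean signal and divided into 10 classes of equal size, the CpG-rich share was 4.23% in class 1, the weakest, 6.99% in class 9 and 25.3% in class 10. The share at a non-coding start site was 9.53%, 10.4% and 18.7% in these classes.

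**Figure D2:**
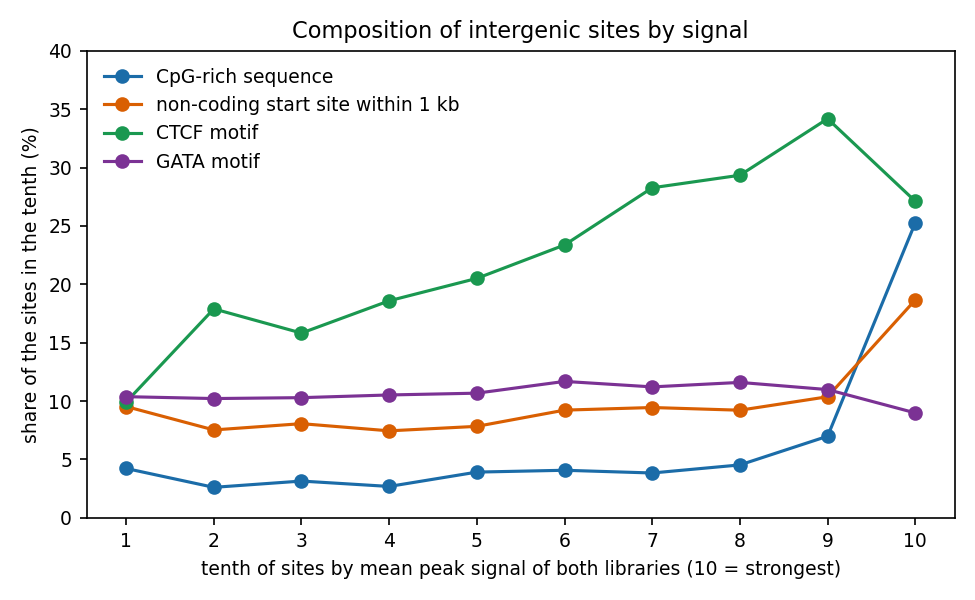
Share of intergenic sites that were CpG-rich, lay within 1 kb of a non-coding start site, or held a CTCF or GATA consensus, in 10 classes of equal size by mean peak signal of both libraries (10 is the strongest). CpG-rich sequence is at most 6.99% up to class 9 and 25.3% in class 10, the CTCF share goes from 9.92% in class 1 to 34.2% in class 9, and the GATA share is between 8.99% and 11.7% throughout.

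Of the 100 strongest sites, 76 were CpG-rich, 46 were at a non-coding start site and 83 were either, whereas 12 held the CTCF core and 2 held a GATA match. The first in rank was an exception. It lay 35.5 kb upstream of Pak3, a kinase gene on chromosome X (143482981 to 143483140), with signals of 133.7 in replicate 1 and 72.4 in replicate 2, was CpG-poor, and had 33.8% of its central bases masked as repeats. Sites on chromosome X had median signals of 0.532 and 0.490. No site was removed for repeats or for sequence present in several copies. Whether reads from several copies raised a signal was not tested. The second, with 35.4 and 31.0, was at the start of the pseudogene 2610005L07Rik, 61.6 kb from Gm15319. The third, 14.6 kb upstream of the zinc finger gene Zfp395, had 33.2 and 29.7 and was at no annotated non-coding start. Others of the top 10 lay at the starts of 1700096K18Rik (32.4 and 23.9), Tmem250-ps (30.6 and 21.1), a non-coding transcript of Tmpo (26.8 and 20.1) and Malat1 (24.8 and 21.6). In all, 8 of these 10 sites were CpG-rich and 5 were at a non-coding start. The signal was higher in replicate 1 at 59.5% of all intergenic sites and 68.9% of all regions, and at 9 of these 10. The exception was the site 21.6 kb upstream of Igf2bp3, an RNA-binding protein of fetal blood cells, with 24.6 in replicate 1 and 34.7 in replicate 2.

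Each distance class had strong sites at such starts. At 5 to 10 kb the top 3 were near Trappc9 (26.8 and 21.7), at the pseudogene B330016D10Rik near Spen (25.6 and 20.5), and at Mir22hg, the host gene of a microRNA, near Tlcd2 (24.3 and 21.2). At 50 to 100 kb, after the site at 2610005L07Rik, came one at the small RNA gene Gm27940 near Cr2 (24.6 and 18.9) and one at the small nucleolar RNA host gene Snhg8 near Prss12 (24.0 and 19.2). Ccne1, cyclin E1, had its strongest site 21.8 kb downstream of a start site (26.9 and 22.3) in the 20 to 50 kb class.

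Divided by these features, the sites fell into 3 parts. The 1743 that were CpG-rich or at a non-coding start (13.4%) had median signals of 1.23 and 1.15 in replicates 1 and 2. The 2724 others with a CTCF core (20.9%) had 1.09 and 1.09. The remaining 8551 (65.7%) had 0.790 and 0.752. In each part the farthest class was below the nearest, although with a CTCF core the classes at 5 to 10 kb and 10 to 20 kb had 1.28 and 1.29 in replicate 2. From 5 to 10 kb to 50 to 100 kb, the medians in replicate 1 went from 1.58 to 0.978 in the first, from 1.37 to 0.796 in the second and from 0.984 to 0.667 in the third, with 1.47 to 0.932, 1.28 to 0.781 and 0.907 to 0.646 in replicate 2. Repeats made up over 50% of 1038 sites (7.97%), a share that was 18.6% in the weakest class and 2.46% in the strongest.

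The CTCF core had the highest share relative to flanks, and to regions near start sites, of 20 consensus strings searched. Matches were counted within 100 bases of each midpoint, on both strands, and set beside regions within 1 kb of a start site and beside flanks, which are windows of the same length 1 kb to either side of the sites. It was present in 2929 sites (22.5%, 95% Wilson interval 21.8 to 23.2), in 4.01% of regions within 1 kb of a start site, in 2.40% of flanks and in 14.6% of all regions of both libraries. Within 50 bases of the midpoint alone the share was still 21.7%. Regions inside genes beyond 5 kb were close to the sites, at 21.5%, and regions 1 to 5 kb from a start site had 17.4%. Intervals cover counting error only. Sites with the core had median signals of 1.11 and 1.12, and those without it had 0.828 and 0.785. The CTCF share was 23.6% at 5 to 10 kb, 24.8% at 10 to 20 kb, 22.4% at 20 to 50 kb and 18.9% at 50 to 100 kb, and it went with signal from 9.92% in class 1 to 34.2% in class 9, then stood at 27.1% in class 10.

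Next in order of the ratio to regions within 1 kb came strings of factors of red cell and blood formation. The median GC content was 61.7% in those regions and 49.5% in the sites. How far base composition sets the order by this ratio, at either end, was not tested. The NF-E2 string, bound by NF-E2, BACH proteins and small MAF proteins, was in 78 sites (0.599%, against 0.128% within 1 kb, 0.161% of flanks and 0.441% of all regions). It contains the AP-1 string TGANTCA, so its matches count for both. The composite of CTG and AGATAA was in 111 sites (0.853%, against 0.257%, 0.253% and 0.878%). The bare GATA string AGATAA, which is part of the composite, was in 1387 sites (10.7%, against 3.65%, 10.02% and 8.76%), so its share in the sites was close to that of their flanks. TGTGGTT, the RUNX consensus, was in 832 sites (6.39%, against 2.28%, 5.52% and 4.90%). None of these strings was particular to intergenic sites. In regions inside genes beyond 5 kb each had a higher share than here. The shares there were 0.689% for the NF-E2 string, 1.67% for the composite, 13.4% for bare GATA and 6.52% for RUNX.

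At the other end of the 17 strings with at least 50 matching sites stood those of housekeeping promoters. GGGGCGGGG, bound by SP1 and related factors, was in 363 sites (2.79%, against 15.7% within 1 kb, 0.857% of flanks and 7.42% of all regions). CCAAT, the NF-Y box, was in 21.2% of sites, 24.8% of regions within 1 kb, 24.1% of flanks and 22.0% of all regions. The next lowest ratios to regions within 1 kb belonged to the string of the B cell factor EBF1, TCCC and GGGA with 2 bases between, (1.08% of sites, against 0.871%, 0.469% of flanks and 0.975% of all regions), to CCACACCC of KLF1 and related factors (4.12%, against 3.05%, 1.94% and 3.82%) and to the E-box CAGGTG (19.5%, against 13.8%, 15.4% and 17.4%). Of the 20 strings, 16 had a higher share in the sites than in their flanks, and for 15 of these the flank share was below the Wilson interval of the sites. For 3 strings it was above the interval, namely CCAAT, the IRF string and the TEAD string. The palindrome of NRF1, typical of housekeeping promoters, had only 26 matching sites (0.200%, against 1.38% within 1 kb and 0.599% of all regions).

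**Figure D3:**
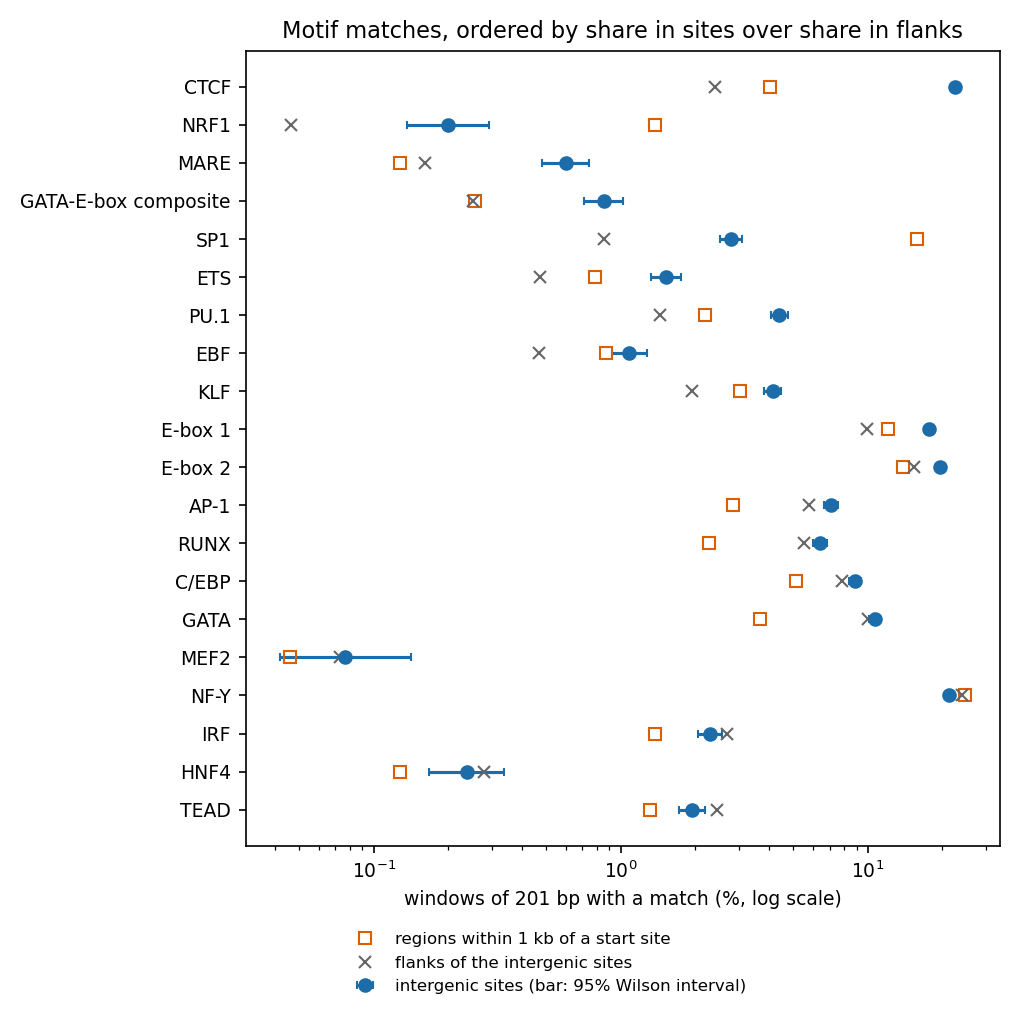
Share of windows of 100 bases to either side of the midpoint with a match to each of 20 consensus strings (log scale) in intergenic sites (filled points, with 95% Wilson intervals), in regions within 1 kb of a protein-coding start site (squares) and in flanks of the intergenic sites (crosses); E-box 1 is the symmetric form and E-box 2 the E2A form. CTCF stands highest over its flanks, at 22.5% against 2.40%, and NRF1, SP1 and NF-Y have lower shares than near start sites, for SP1 2.79% against 15.7%.

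Footprints gave a second view of the same strings. A match counted when a footprint overlapped at least 1 of its bases, which a longer string meets more easily, so shares are best read for 1 string across sets of regions. Of 2977 CTCF core matches in the sites, 2759 (92.7%) were footprinted in both libraries, against 70.7% of 890 matches within 1 kb of start sites. For the E-box CAGGTG the shares were 29.8% of 2865 and 14.8% of 3346, for EBF1 52.8% of 144 and 31.6% of 193, and for the NF-E2 string 47.0% of 83 and 37.9% of 29. The GATA composite stood at 33.6% of 113 and 32.1% of 56. The opposite order was seen for SP1, with 57.8% of 422 in the sites and 77.8% of 4397 near start sites, for bare GATA, with 11.2% of 1529 and 14.6% of 843, and for the PU.1 string GAGGAAGT, with 6.30% of 587 and 12.96% of 486. Most CTCF cores thus carried a footprint in both libraries, in the sites and near start sites. In replicates 1 and 2 taken singly, 21.5% and 21.2% of bare GATA matches in the sites were footprinted. For PU.1 matches it was 15.7% and 17.2%. Footprints covered 18.1% and 21.1% of all bases near the midpoints of the sites. The overlap to be had by position alone was not computed. The PU.1 string shares AGGAAGT with the ETS string.

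Of 29 loci of blood regulators and red cell genes, 24 (82.8%) had at least 1 intergenic site within 100 kb, against 13692 of all 21853 genes (62.7%), a difference that was not tested. These loci held 139 sites, of which 91 were nearest to another gene and 104 (74.8%) had peaks of the stricter lists of both libraries, beside 64.5% of all intergenic sites. The genes with none were Spi1, Irf8, Kit, Zfpm1 and Epb42. Distances below are from the most upstream start site of the gene named.

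The beta globin cluster on chromosome 7 had 7 sites within 100 kb of the adult globin gene Hbb-bt. The site with the paired NF-E2 strings, 47.1 kb upstream of Hbb-bt and 7.9 kb upstream of Hbb-y, had signals of 8.73 in replicate 1 and 6.38 in replicate 2 (7.56 ± 1.66). Its neighbour with the GATA match had 4.05 and 3.13 (3.59 ± 0.652). The next in the row, 51.9 kb upstream of Hbb-bt, also held the NF-E2 string and had 1.48 and 1.28. Farther out, between olfactory receptor genes, sites at 56.9, 59.3 and 99.2 kb had 1.95 and 1.79, 1.08 and 0.719, and 1.71 and 0.985. The single site on the other side, 6.9 kb downstream of the start of Hbb-bt, had 1.36 and 1.00 and a GATA match. The deposited signal was higher in replicate 1 at all 7 sites, as it was at 59.5% of all intergenic sites and 68.9% of all regions.

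Slc4a1, the anion exchanger of the red cell membrane, was the nearest gene of 11 sites, the most of the erythroid list. The 2 strongest lay 10.1 kb upstream (6.10 and 5.08) and 10.7 kb upstream (6.08 and 4.85), the latter at the start of Bloodlinc, a long non-coding RNA gene described in red cell precursors. A further site 7.9 kb upstream had 2.77 and 1.81, and one 17.1 kb downstream had 1.84 and 1.496. The other 7 were between 0.355 and 1.46 in replicate 1 and between 0.409 and 1.15 in replicate 2. At Tal1, the basic helix-loop-helix factor of blood formation, strong sites stood on both sides. The upstream one, at 8.5 kb, had 7.48 and 6.92 (7.20 ± 0.396), and the one 39.5 kb downstream, nearest to Pdzk1ip1, had 7.42 and 5.80. The weaker neighbour of the first, 8.0 kb upstream, held the GATA composite and had 1.17 and 1.07.

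Gfi1b, a repressor needed in red cell and platelet precursors, had 5 sites downstream, all nearest to Gtf3c5. The strongest, at 19.6 kb, had 8.42 and 5.71, and the one at 29.0 kb, with a CTCF core, had 5.93 and 4.43. Those at 23.8, 24.8 and 25.7 kb had 2.19 and 1.66, 2.65 and 2.08, and 1.21 and 1.11, and a GATA match stood in the first and last of these 3. Klf1, the main activator of globin and red cell membrane genes, had 4 sites, all nearest to other genes. The strongest in its window, 90.9 kb upstream and nearest to Nfix, had 8.92 and 8.66 and a CTCF core.

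The Lmo2 window was the fullest, with 29 sites, but most were faint. The strongest, 64.0 kb upstream, had 3.72 and 2.96 (3.34 ± 0.535), followed by 3.15 and 2.95 at 85.8 kb and by 2.29 and 2.15 at 92.0 kb, where a CTCF core was found. The other sites nearest to Caprin1 in this window were faint, from 0.0914 to 0.430 in replicate 1 and from 0.0736 to 0.409 in replicate 2. At Myb 11 sites were found. The strongest, 35.8 kb upstream in the interval towards Hbs1l that is known to hold Myb enhancers, had 3.54 and 2.56 (3.05 ± 0.689), and sites 28.2 and 91.4 kb upstream had 1.85 and 1.37 and 1.84 and 1.55. Both of the latter were at starts of long non-coding RNA genes. Gata2, a factor of blood stem and progenitor cells, had 8 sites upstream, 6 of them nearest to Rpn1. The one 77.0 kb upstream, a distance at which an enhancer of Gata2 is known, had 1.92 and 1.47, and the strongest, at 87.7 kb, had 3.22 and 3.20.

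Other loci had fewer sites. Cebpe had 2, of which the one 6.2 kb downstream had 5.77 and 4.94 (5.35 ± 0.588). An enhancer of Cebpe at this distance is known in neutrophil precursors. Car2 had 3 upstream, with 4.04 and 2.74 at 8.5 kb, 1.23 and 1.22 at 7.1 kb and 0.726 and 0.564 at 5.8 kb, and GATA matches stood in the stronger pair. Gata1, on chromosome X, had sites 14.8, 15.4 and 22.7 kb upstream with 1.27 and 0.867, 1.23 and 0.920, and 0.624 and 0.413. Runx1 had 1, 57.8 kb upstream, with 1.73 and 1.51. Ebf1, a founding factor of the B lineage, had 4 upstream, the strongest of 2.12 and 2.42 at 6.3 kb. E2f2, a cell cycle factor of late red cell precursors, had its strongest site 8.7 kb upstream with 5.19 in replicate 1 and 6.23 in replicate 2.

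**Figure D4:**
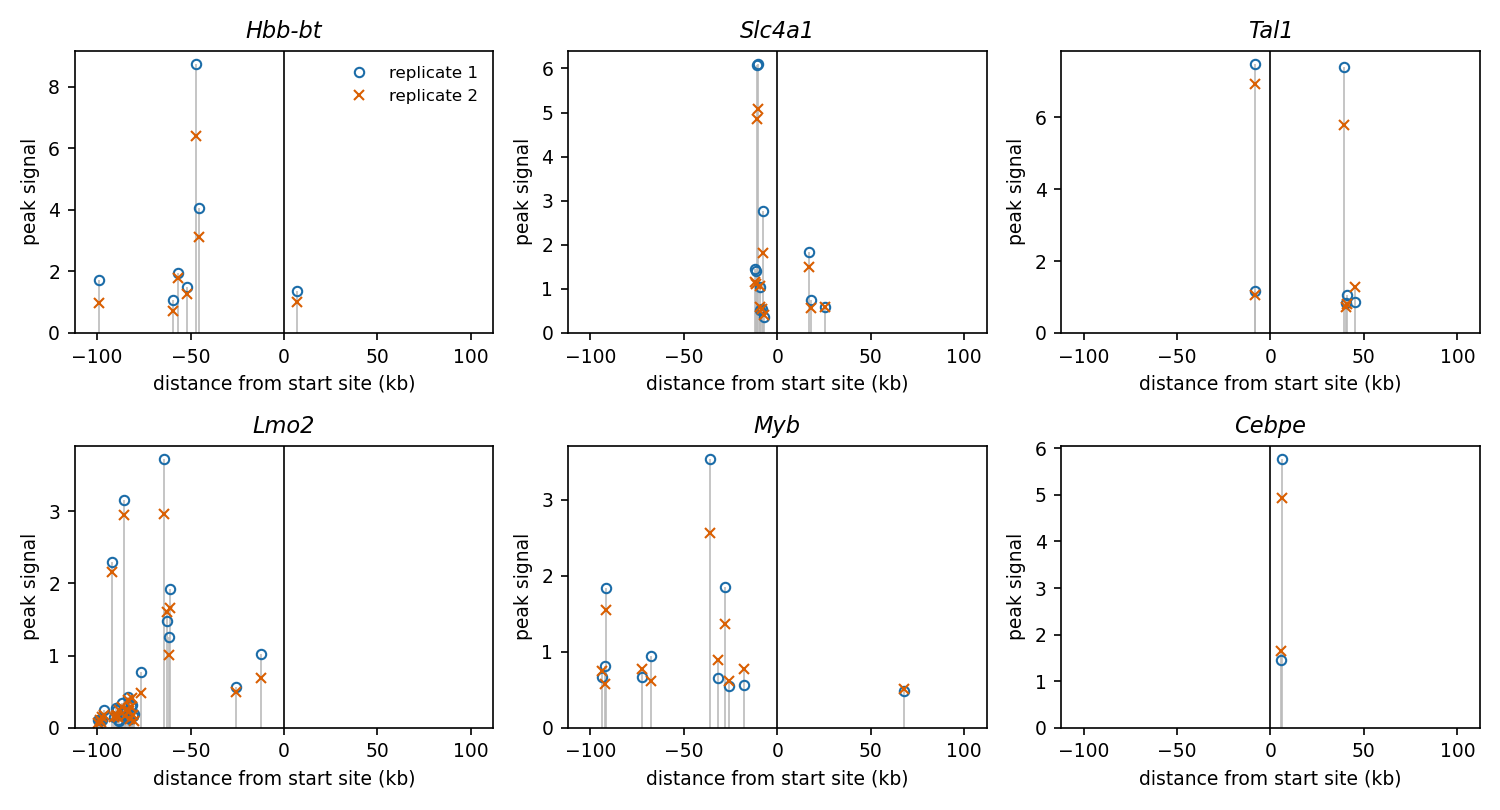
Peak signal of every intergenic site within 100 kb of 6 genes in replicate 1 (circles) and replicate 2 (crosses), against distance from the most upstream start site of the gene (negative is upstream). The globin and Slc4a1 windows are led by sites on the upstream side, with 8.73 and 6.38 at the strongest globin site, Tal1 has strong sites on both sides, and most of the 29 sites of Lmo2 are faint.

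By nearest gene, the sites were spread over 5903 of 21853 protein-coding genes with an annotated start site, or 27%. Of these genes 2987 had a single site, 567 had at least 5 and 76 had at least 10. A region of both libraries lay within 1 kb of a start site of 4167 of the 5903 (70.6%), against 9016 of the 15950 other genes (56.5%), and the share was between 71.1% and 74.4% in all 4 classes of distance. Among 9658 sites whose nearest gene had such an open promoter, 1375 (14.2%) were stronger than it. Signals of site and promoter had a Spearman correlation of 0.118 over these sites, which share promoters where a gene has several. Of 316 genes in 13 lists of cell types and functions, 117 had at least 1 site. Gene counts of lists below are to be read beside the 27% of all genes, and none was tested.

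Erythroid genes had a site in 20 of 50 cases, with 71 sites in all and median signals of 1.23 and 1.07 (1.15 ± 0.112). Of these sites 17 (23.9%) held a GATA match, against 10.7% of all intergenic sites and 6 of 27 near B cell genes. Pim1, with 10 sites, had the strongest, 52.2 kb upstream, with 14.8 in replicate 1 and 11.8 in replicate 2. Sites of the stem and progenitor list were nearest to 10 of 22 genes and weaker, with medians of 0.715 and 0.862. The strongest of them lay 59.1 kb upstream of Cd34, a surface protein of progenitors and vessels (6.92 and 5.83), and 47.3 kb upstream of Fli1, an ETS factor of megakaryocytes and vessels (3.75 and 3.55). Both genes had weaker peaks at their own promoters, with mean signals of 0.4999 and 0.676. In the megakaryocyte list, which also holds Fli1, 3 of 20 genes had sites, 8 in all.

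In the B cell list, 12 of 26 genes had a site, with 27 sites at medians of 1.03 and 1.20. Cr2, the complement receptor of B cells, came first through the site at the small RNA gene (24.6 and 18.9), followed by Cxcr5, a chemokine receptor (4.46 and 3.76), and Cd79b, a chain of the antigen receptor (2.11 and 2.49). The Cxcr5 site was at the start of the long non-coding RNA gene Gm47230. Foxo1, a factor of early B cells, had the most, 6. The T and natural killer list had sites at 12 of 22 genes, 24 in all, with medians of 0.925 and 0.842 and no GATA match. Its strongest lay near the killer cell receptor gene Klrb1c (5.31 and 6.66). The thymic factor Tcf7 had 1.60 and 2.44 and the receptor kinase Zap70 1.98 and 1.82, and none of these 3 genes had an open promoter.

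Of the neutrophil list, 9 of 21 genes had sites (19, medians 0.876 and 0.736), led by Cebpe, then S100a9, a calcium-binding protein of neutrophils (3.84 and 3.34), and Gfi1, a repressor of granulocyte formation (2.86 and 2.33). The S100a9 site was at the start of the pseudogene Gm42579, and the Gfi1 site at that of the long non-coding RNA gene Gm26692. Csf3r, the receptor of the granulocyte growth factor, had the most, 5, the strongest of 2.39 and 2.11. In the macrophage and dendritic list it was 11 of 27 genes (29 sites, medians 0.704 and 0.609). Hmox1, the haem-degrading enzyme of macrophages that recycle red cells, had the strongest, 9.6 kb upstream (10.95 and 8.003), above its promoter's mean of 3.73. Adgre1, the gene of the F4/80 antigen, followed with 3.74 and 4.39, and Cd209a had 4.12 in replicate 1 and 1.41 in replicate 2. Adgre1 and Marco, a scavenger receptor, had 5 sites each.

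Sites near cell cycle genes had the highest list medians, with 9 of 24 genes, 28 sites and medians of 1.85 and 1.69 (1.77 ± 0.113). Besides Ccne1, the proliferation antigen Mki67 had 8 sites, the strongest of 6.71 and 6.98, and the mitotic kinase Aurkb had 5.65 and 6.34. Housekeeping genes had sites in 8 of 20 cases (27 sites, medians 1.48 and 1.51), led by Actb, cytoplasmic actin (8.90 and 7.14), and Ywhaz, an adaptor protein with 7 sites (4.85 and 4.93). Endothelial and stromal genes had sites in 12 of 26 cases (36 sites, medians 0.626 and 0.601), the strongest near Eng, a receptor of vessel walls (1.76 and 2.33). Egfl7, a secreted protein of vessels, and Tlx1, a factor needed to form the spleen, had 7 sites each, the strongest of 1.24 and 1.72 and of 1.28 and 1.06. For tissues foreign to the spleen, hepatocyte genes had sites in 8 of 22 cases (22 sites, medians 0.581 and 0.519), of which 10 belonged to Pck1, an enzyme of glucose synthesis, neuronal genes in 4 of 22 (5 sites) and muscle genes in 0 of 18. As a check of the tissue, open promoters were found for 60.3% of all genes. Lists above that share were erythroid (47 of 50), stem and progenitor (18 of 22), B cell (21 of 26), neutrophil (14 of 21), cell cycle (24 of 24) and housekeeping (20 of 20). Below it were neuronal (13 of 22), macrophage and dendritic (14 of 27), T and natural killer (10 of 22), endothelial and stromal (11 of 26), muscle (6 of 18), megakaryocyte (6 of 20) and hepatocyte genes (2 of 22).

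The genes nearest to the most sites were not marker genes of 1 cell type. Zfp36l2, an RNA-binding protein that destabilises messenger RNA, had 39 sites spread over 5.1 to 87.1 kb downstream of its start, with signals from 0.134 to 14.2 in replicate 1 and from 0.151 to 10.1 in replicate 2. Gm15319 on chromosome 8 had 32, B4galt5, a galactosyltransferase, 24, Caprin1, an RNA-binding protein, 24, and Top1, the DNA topoisomerase I, 22. Medians were low at B4galt5 (0.360 and 0.307), Caprin1 (0.156 and 0.172) and Top1 (0.191 and 0.180), far below the 0.887 and 0.846 of all sites. They were higher at Irf2bpl (19 sites, 2.14 and 1.57), Kcnrg (18 sites, 1.22 and 1.13, of which 11 were at non-coding start sites) and Trim27 (16 sites, 1.35 and 1.33). The 10 also include 4930467E23Rik, also on chromosome 8, with 19 sites, and Gm21860 on chromosome Y with 17. No filter for sequence present in several copies was applied to these counts. The 76 genes with at least 10 sites held 1001 sites, 7.69% of all.

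The libraries differed a little, and not equally across kinds of site. The log2 ratio of replicate 2 over replicate 1 was centred on its median over all 60596 regions (-0.16), so that 0 means the usual ratio. Intergenic sites had a median of 0.08, against -0.08 in regions within 1 kb and 0.12 in intergenic regions beyond 100 kb, and single sites scattered with an SD of 0.36. The median was 0.13 in the weakest of the 10 classes of strength and -0.01 in the strongest, so the ratio moved with signal. A 2-fold difference was reached by 93 sites higher in replicate 2, where 0.447% of all regions were, and by 25 higher in replicate 1, where 0.145% were. Together these 118 sites were 0.906% of the intergenic sites, beside 0.592% of all regions. Only 37 of the 118 were at or above the median signal, 49 had stricter peaks of both libraries, and 27 were mostly repeat sequence. Among all intergenic sites 64.5% had such stricter peaks and 7.97% were mostly repeat sequence.

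Sorted by consensus, sites with the NF-E2 and GATA strings had medians below 0, towards replicate 1. Sites with most other strings had medians above 0, as did all intergenic sites together (0.08). The median was -0.16 for the NF-E2 string (78 sites, 70.5% below 0), -0.15 for the GATA composite (111 sites, 68.5%) and -0.05 for bare GATA (1387 sites, 55.4%), where 41.1% of all intergenic sites were below 0. SP1 sites, at -0.05, were the only others of the 17 strings with at least 50 sites to lie below 0. The KLF string lay between 0 and the 0.08 of all intergenic sites, at 0.02 (536 sites, 48.3% below 0). So did the AP-1 string at 0.04 and the IRF string at 0.05. The median was 0.16 for EBF1 (141 sites, 31.9% below 0) and 0.12 for CTCF (2929 sites), PU.1 (570 sites) and ETS factors (198 sites). In replicate 1, sites with the NF-E2 string and with the CTCF core had close median signals, 1.09 and 1.11, and in replicate 2 they had 0.830 and 1.12. With 1 ratio per site and 1 pair of libraries no error between animals could be set against them.

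The gene lists gave a like order. Sites near erythroid genes had a median of -0.13 (44 of 71 below 0) and those near neutrophil genes -0.02 (10 of 19). The 71 erythroid sites were nearest to 20 genes, with 11 at Slc4a1, 10 at Pim1 and 8 at Lmo2. Each site was counted singly, so a few genes weigh heavily. The other 10 lists with sites were above 0, with 0.14 for B cell genes (8 of 27 below 0), 0.20 for T and natural killer genes (8 of 24), 0.20 for macrophage and dendritic genes (7 of 29), 0.17 for cell cycle genes (8 of 28) and 0.19 for endothelial and stromal genes (13 of 36). The loci gave no single order. Of their 139 sites 64 (46.0%) were below 0, and 9 of 24 loci had a median below 0. Among red cell loci the count below 0 was 6 of 7 for globin, 4 of 5 for Gfi1b, 3 of 3 for Gata1 and 7 of 12 for Slc4a1, but 3 of 6 for Tal1, 13 of 29 for Lmo2, 2 of 4 for Tfrc, 1 of 4 for Klf1 and 0 of 3 for Epor. The share of each cell type in the tissue of the 2 libraries was not measured.

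**Figure D5:**
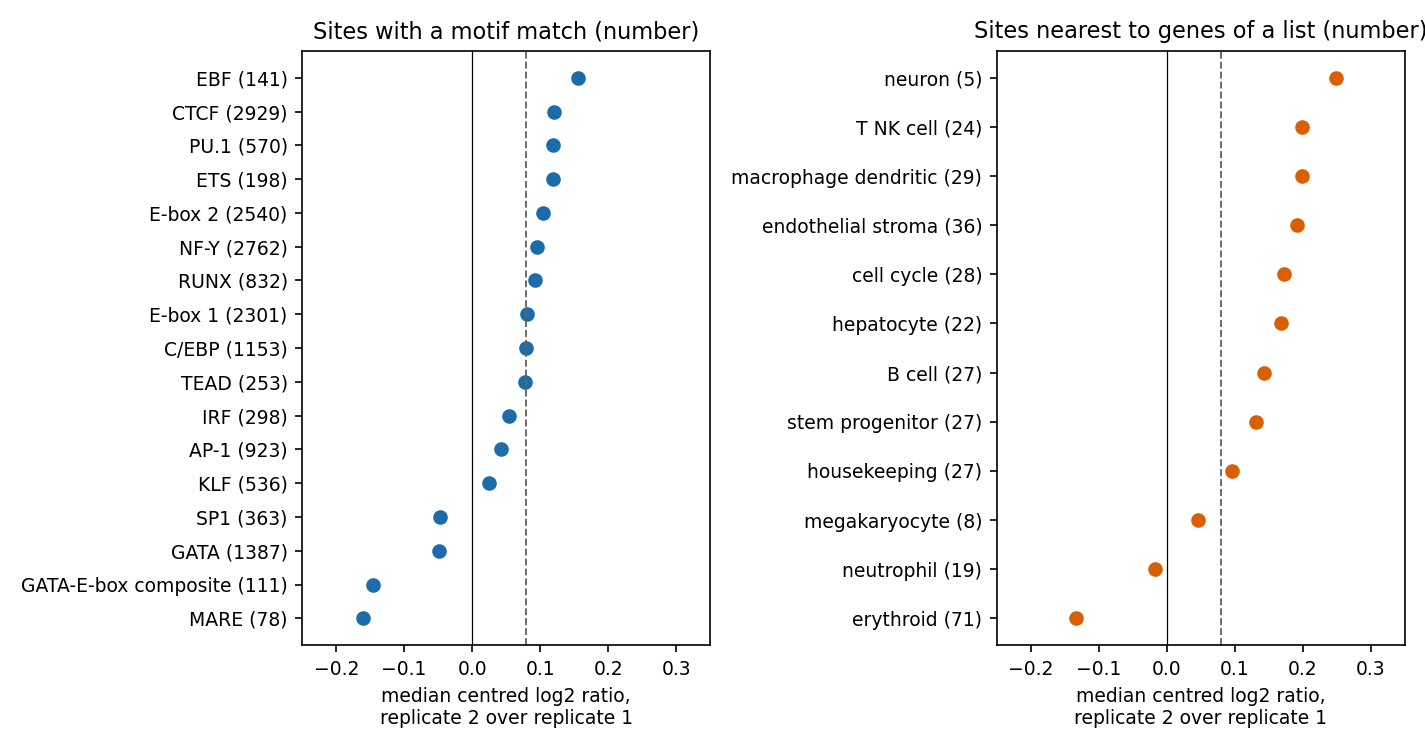
Median centred log2 ratio of replicate 2 over replicate 1 for intergenic sites with each consensus found in at least 50 sites (left) and for sites nearest to genes of each list (right), with the number of sites in brackets; the solid line is 0, the median of all regions, and the dashed line the median of all intergenic sites. NF-E2 (MARE) at -0.16, the GATA composite at -0.15 and erythroid genes at -0.13 lie lowest, and single sites scatter with an SD of 0.36.

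The widest single ratios, among sites at or above the median signal, went both ways. Towards replicate 2 the largest was 55.4 kb from Pdia4, with 0.796 in replicate 1 and 2.50 in replicate 2 (centred log2 ratio 1.81), where the stricter list of replicate 1 had no peak. The stricter list of replicate 2 had none at the Fbln1 and Aasdhppt sites below. Next came sites near Dusp6, a phosphatase of MAP kinases (0.962 and 2.58, all of its central bases masked as repeats), Btnl2, a butyrophilin-like gene of the major histocompatibility complex (1.03 and 2.66), Foxn3 (0.909 and 2.04) and Myl12b, a myosin light chain (3.09 and 6.70). Towards replicate 1 the largest was near Fbln1, an extracellular matrix protein, with 1.88 and 0.482 (-1.80), followed by Zfp958 (4.26 and 1.15), Sfi1 (4.80 and 1.30, with 83.1% masked), Aasdhppt (1.54 and 0.495) and Gtpbp4 (8.85 and 2.89). None of the 10 held a GATA or a CTCF string, which 10.7% and 22.5% of all intergenic sites held. All 10 carried footprints in both libraries, beside 89.5% of all intergenic sites and 94.9% of those in class 6 of signal. With 10 sites these counts say little. Each of the 10 ratios rests on 1 value per library.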

How the data were processed

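DNase-seq was done on whole spleen, with 2 libraries in 1 group. Each library came with 2 peak lists that carry a signal per peak, deposited by the authors. The authors also deposited footprints with a constant q-value (FDR) of 0.01 and stretches of bases with q-values under 0.05. Per the labels of the files, all were made on mm10 from that library's own alignment. The signal scale is not stated, and values are multiples of 0.00538 in replicate 1 and 0.00409 in replicate 2. No source used here gives the aligner or the peak and footprint callers, or how CAST/EiJ reads were placed. Depth is unknown, so no interval of signal for counting error was possible.

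The longer lists (80323 and 88723 peaks) were merged; 105096 regions resulted, and of 24204 in the intergenic class 53.8% had peaks of both libraries. A site's signal is its highest peak in a library. Start sites were those of protein-coding transcripts (54361 sites of 21853 genes), and gene bodies those of 21938 genes. No peak ended beyond a chromosome of GRCm38.p6. Intervals were handled with pandas 2.3.3 and numpy 2.4.6 in Python 3.11.15, sequence was read with pysam 0.24.0 from an index by samtools 1.23.1, bedtools 2.31.1 joined sites with FDR stretches, scipy 1.17.1 gave correlations, figures were drawn with matplotlib 3.10.9, and merging and distances were checked on simulated peaks. Sites, gene lists, motifs and loci were chosen with earlier results of these data known. Named were the 10 strongest sites and 3 per distance class, the 5 widest ratios in each direction at or above the median signal, sites of 29 loci, the 10 genes with most sites, the top 3 genes of each list by signal and by number, and the 5 highest and 5 lowest motif ratios to regions within 1 kb among motifs with at least 50 matches; NRF1, which has fewer, PU.1, ETS and the strings compared with flanks were added after their values were seen. Some of the genes the rule names are given only within counts. Alternatives were each library alone, the stricter lists, 50% reciprocal overlap, start sites of all transcripts, both ends of a site, mean peaks, centring near start sites and a motif window of 50 bases to either side.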

Additional observations from a re-analysis of the deposited data

How the results depend on the processing

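The order of the median signal by distance was the same in all 7 alternatives that give it, with the nearest class 1.43 to 1.58 times the farthest. Levels did move. Without replicate 1 or without replicate 2, sites were called on peaks of 1 library alone: 17179 to 20209 sites, with 6262 to 7368 at 20 to 50 kb and 3855 to 4734 at 50 to 100 kb. The median signal was then 0.552 to 0.688, and by class 0.687 to 0.866, 0.642 to 0.801, 0.535 to 0.656 and 0.446 to 0.548. The higher counts and the lower medians were those without replicate 1. The share with stricter peaks was 59.4% to 60.6%, with footprints 82.5% to 84.9%, with the CTCF core 16.6% to 18.8% and with GATA 9.51% to 10.6%. The stricter lists gave 8422 sites (3031 at 20 to 50 kb and 1638 at 50 to 100 kb) and a median of 1.27 (by class 1.51, 1.40, 1.20 and 1.06). Of these sites 95.7% had footprints and 27.0% had the CTCF core. The share with stricter peaks has no value in this setting. With 50% reciprocal overlap the median was 0.934 (by class 1.13, 1.05, 0.877 and 0.765), with 69.0% stricter peaks, 92.1% footprints and 24.2% CTCF. With start sites of all transcripts the medians were 0.787 at 20 to 50 kb and 0.687 at 50 to 100 kb. The cause of the moves with the stricter lists, reciprocal overlap and start sites of all transcripts was not tested. A motif window of 50 bases to either side gave 21.7% for CTCF and 5.13% for GATA. Leaving out sites at non-coding start sites, chosen after seeing the data, gave 0.691 at 50 to 100 kb and 23.5% for CTCF. The median ratio stayed above 0 in all 4 of its alternatives (0.08 to 0.16), and the number of nearest genes was 4485 to 7190. No paired analysis was possible because the study has 1 group. Weak sites depend on depth, which is unknown, so a peak missing from 1 library may lie under its limit of detection.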

Other observations

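Some weak sites were called by the stricter lists. Of the 1301 sites in the weakest of 10 classes of signal, 206 nevertheless had peaks of the stricter lists of both libraries. Their median signals were 0.210 and 0.204 in replicates 1 and 2 and their median width was 300 bp, against 180 bp in the whole weakest class. They were nearest to 86 genes, with 95 of them at 10 genes, and the genes named next were chosen after their values were seen. Caprin1 had 18, B4galt5 13, Top1 12, Zfp36l2 12 and Prnd 10, and 62 of the 206 were on chromosome 2, which held 1096 of the 13018 intergenic sites (8.42%). Repeats made up over 50% of the sequence in 24.8% of the 206, beside 18.6% in the whole weakest class.

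Sites on the sex chromosomes were weaker. The 385 sites on chromosome X had median signals of 0.532 and 0.490, against 0.898 and 0.858 for the 12597 on autosomes, in male animals with 1 copy of X. The 36 sites on chromosome Y had 0.320 and 0.354, and 58.3% of them were mostly repeat sequence. Sites were also close to one another, with a median of 5.9 kb to the nearest other site and 6161 of 13018 (47.3%) within 5 kb of one.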
